A study of Mus musculus with 10 samples.

Results

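The neuregulins Nrg1, Nrg2 and Nrg3 and the ErbB receptor genes Egfr, Erbb2, Erbb3 and Erbb4 were followed in mouse amygdala lacking neuropsin. The 7 genes were taken by symbol, as all probe sets annotated to exactly 1 symbol when that symbol was one of them, which gave 201 of the 318760 probe sets with a single symbol. Gene expression was measured on Affymetrix exon arrays, where a gene is read by many probe sets of a few probes each, in amygdalae of 3-month-old neuropsin-/- mice and of wild-type C57BL/6 controls. Neuropsin is the secreted serine protease encoded by Klk8; the knock-out line, labelled neuropsin-/-, had been backcrossed onto C57BL/6 over 12 generations. There were 5 arrays per genotype, and RNA of 3 animals was combined on each array, so that 15 animals stood behind each genotype and animals within an array cannot be told apart. No batch is named in the labels. Because the arrays are the replicates and nothing says more about how the pools were made, the p-values measure the spread between these arrays.

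Neuregulins are growth factors with an EGF-like domain that are made as membrane-bound precursors and shed by proteases, and neuropsin is one of the enzymes known to process Nrg1. They bind Erbb3 and Erbb4, which pair with each other or with Erbb2, a receptor that binds no neuregulin itself; Egfr answers to other ligands such as EGF. In brain, Nrg1 and Erbb4 are known from the wiring and inhibitory output of interneurons, Erbb3 from cells of the oligodendrocyte lineage, and Egfr from astrocytes and progenitors. The comparison here asks whether the mRNA of this system differs when neuropsin is missing.

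All values are log2 expression values, and a gene level is the mean over the gene's probe sets above an intensity filter, so a level says how a gene differs between arrays and is not set against another gene's level. Of the 201 probe sets, 180 passed the filter, and all 7 genes were measured at the gene level by 11 to 34 probe sets each. Differences are knockout minus wild type and were tested with limma across 16367 genes, with Benjamini-Hochberg adjustment. In the 10 arrays, gene levels correlated at 0.958 to 0.987 between arrays, over genes, which are not independent replicates. Wild-type arrays 4 and 5 stood apart on the first principal component, which carried 35.5% of the variance, at 20.5 and 23.5 against -14.2 to 7.4 on the other 8 arrays. Knockout arrays 4 and 5 lay on the same side of 0, at 7.4 and 3.1. Arrays 1 to 3 of both genotypes lay on the other side, at -14.2 to -2.4. Klk8 itself averaged 5.02 ± 0.29 in knockout and 5.17 ± 0.27 in wild type over its 9 probe sets (SD, n = 5 each), a difference of -0.15 (exact permutation test, two-sided, p = 0.413). Its gene level over the 5 probe sets above the filter differed by -0.39 (limma unadjusted p = 0.0199, adjusted p = 0.693). Which exons the deletion removes is not stated in the labels, so neither value checks the genotype. At 5.17 in wild type, Klk8 also lay close to the intensity filter of 4.94, so a loss could be hard to see. All 7 listed amygdala markers were measured, 3 higher and 4 lower in knockout (median -0.06, 0 past the test). They ran from Dlk1, at 7.22 in knockout and 7.47 in wild type (-0.25, limma adjusted p = 0.693, groups not overlapping), to Etv1, at 8.87 in knockout and 8.63 in wild type (0.24, limma adjusted p = 0.701), with Lmo3 at 9.70 in knockout and 9.66 in wild type.

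No neuregulin or ErbB gene passed the test. By limma, 0 of the 7 genes had an adjusted p under 0.05, against 0.0244% of all genes tested (4 of 16367). At an unadjusted p under 0.05, 2 of the 7 were found (Nrg3 and Erbb2), against 6.98% of all genes. The knockout and wild-type arrays did not overlap for 1 of the 7 genes (Erbb2), against 1.55% of all genes. In bulk tissue such as this, fewer cells of a type and less RNA per cell cannot be told apart.

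The promoters of Nrg3 and Erbb2 are shown because these are the 2 genes with the smallest p. Each is the 250 bases before a RefSeq start (GRCm38.p6), 5′ to 3′, with Nrg3 on the minus strand at chr14:39473089-39473338 and Erbb2 on the plus strand at chr11:98412234-98412483. The annotated Nrg3 gene reaches 39473235, so part of the Nrg3 window lies inside the gene and not before its outermost start. Capitals would mark a GC box, and there is none in either.
Nrg3: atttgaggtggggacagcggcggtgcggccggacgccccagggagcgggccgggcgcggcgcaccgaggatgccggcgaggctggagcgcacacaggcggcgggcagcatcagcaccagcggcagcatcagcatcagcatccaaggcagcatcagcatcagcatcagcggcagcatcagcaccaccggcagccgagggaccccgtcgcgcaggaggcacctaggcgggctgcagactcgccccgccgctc
Erbb2: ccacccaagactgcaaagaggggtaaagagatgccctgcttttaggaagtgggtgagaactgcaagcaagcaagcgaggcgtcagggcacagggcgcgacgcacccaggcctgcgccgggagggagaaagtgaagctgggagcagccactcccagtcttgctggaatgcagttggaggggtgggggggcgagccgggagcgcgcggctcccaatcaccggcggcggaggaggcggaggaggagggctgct
The Nrg3 window holds 27 CpG dinucleotides at 72.4% GC and the Erbb2 window 16 CpG at 66% GC, against a median of 6 CpG in all 32851 promoters of the table. On both strands, the GC box, spelled GGGCGG, was in neither window and is held by 32.7% of all promoters. The TATA box, spelled TATAAA, was also in neither and is held by 12.4%. The E box, spelled CACGTG, was in neither and is held by 6.02%. The 4 promoters searched were those of Nrg3, Egfr, Erbb2 and Erbb4, and the Egfr promoter held 1 GC box. Nrg1 and Erbb3 had no entry, and the Nrg2 promoter is not reported here. The Erbb4 window lay wholly inside the annotated gene.

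Among the ligands, Nrg1, the neuregulin that neuropsin processes, was at 7.03, 6.82, 7.01, 6.84 and 7.02 on knockout arrays 1 to 5 and at 6.89, 6.92, 7.09, 6.87 and 6.83 on wild-type arrays 1 to 5. The groups overlapped, and the highest array was wild-type array 3. The means were 6.94 ± 0.10 in knockout and 6.92 ± 0.10 in wild type, a difference of 0.02 (SE 0.08; limma adjusted p = 0.969; 95% interval -0.14 to 0.19). Single Nrg1 probe sets lay on both sides of 0: 16 of 33 were higher in knockout, 14 lower and 3 equal after rounding, with a range of -0.71 to 0.53. The lower end was probe set 5411882, which had a mean of 4.78, under the intensity filter, and was not tested. Among the 28 Nrg1 probe sets above the filter the lowest difference was -0.42, at probe set 5037592. The upper end was probe set 5329867, at 6.58, 6.09, 6.52, 6.18 and 6.10 in knockout against 5.49, 5.23, 5.86, 6.35 and 5.88 in wild type, a difference of 0.53 (SE 0.21; limma adjusted p = 0.824). Wild-type array 4 lay among the knockout arrays there.

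Nrg2, a second neuregulin that binds Erbb3 and Erbb4, was at 6.79, 6.92, 7.15, 6.76 and 6.95 on the knockout arrays, against 6.98, 6.94, 6.96, 6.94 and 7.08 on the wild-type arrays. Knockout arrays covered a wider range than wild-type arrays, with SDs of 0.15 and 0.06. The difference was -0.06 (SE 0.08; limma adjusted p = 0.890; 95% interval -0.24 to 0.11). Of its 13 probe sets, 6 were higher and 7 lower in knockout.

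Nrg3, which acts through Erbb4 and is made mainly by neurons, was at 8.78, 8.60, 8.80, 8.79 and 8.69 on the knockout arrays, against 8.63, 8.51, 8.71, 8.42 and 8.55 on the wild-type arrays. Knockout arrays 1, 3 and 4 lay above every wild-type array, and knockout arrays 2 and 5 lay within the wild-type range. The means were 8.73 ± 0.09 in knockout and 8.56 ± 0.11 in wild type, a difference of 0.17 (SE 0.08; 1.12-fold; limma unadjusted p = 0.0486, adjusted p = 0.711; 95% interval 0.00 to 0.33). The direction was shared by 10 of 11 probe sets, whose differences ranged from -0.08 to 0.39 with a median of 0.17. No single Nrg3 probe set passed the test; the largest, 5327973, was at 7.85, 7.25, 7.30, 7.87 and 7.49 in knockout against 7.11, 7.16, 6.99, 6.91 and 7.64 in wild type, a difference of 0.39 (limma unadjusted p = 0.0615). The lower probe set, 5009657, differed by -0.08. Excitatory neuron markers leaned the same way as Nrg3, with 5 of 6 measured higher in knockout (median 0.14, 0 past the test), at a mean list level of 8.59 to 8.72 in knockout and 8.40 to 8.64 in wild type, and their part in the Nrg3 difference was not tested.

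**Figure D1:**
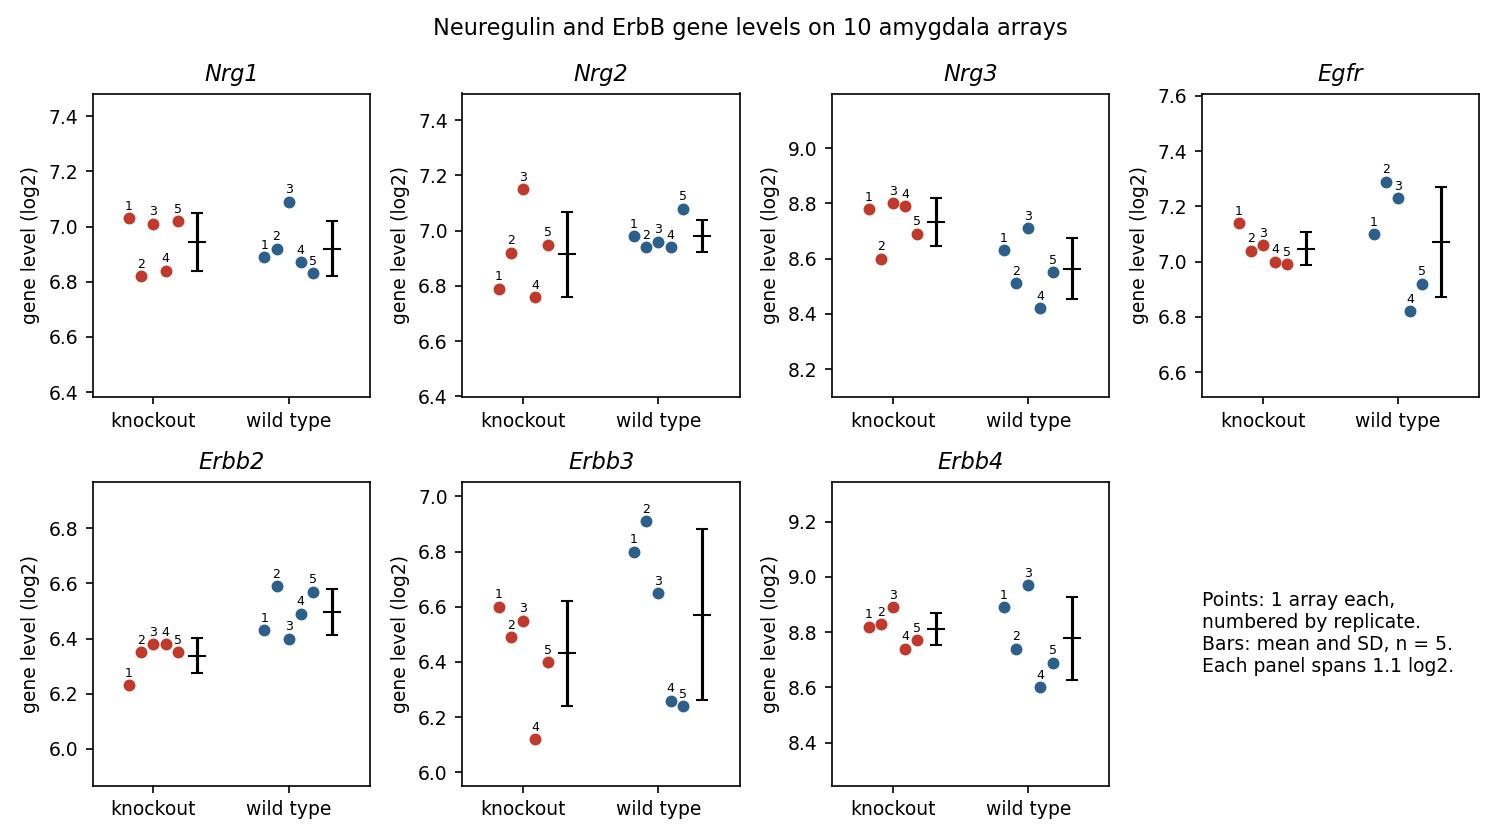
Gene level (log2) of the 7 neuregulin and ErbB genes, with knockout arrays left and wild-type arrays right; each point is 1 array, and bars are the mean and SD of n = 5. Erbb2 is the gene whose knockout arrays (6.23 to 6.38) all lie below its wild-type arrays (6.40 to 6.59), and Nrg3 overlaps only in part.

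Of the receptors, Erbb2, the partner that lacks a neuregulin of its own, was at 6.23, 6.35, 6.38, 6.38 and 6.35 on the knockout arrays, against 6.43, 6.59, 6.40, 6.49 and 6.57 on the wild-type arrays. All knockout arrays were below all wild-type arrays, by a narrow margin between knockout arrays 3 and 4 and wild-type array 3. The means were 6.34 ± 0.06 in knockout and 6.50 ± 0.09 in wild type, a difference of -0.16 (SE 0.07; 0.895-fold; limma unadjusted p = 0.0399, adjusted p = 0.701; 95% interval -0.31 to -0.01). Of 37 probe sets, 25 were lower in knockout, 11 higher and 1 equal, with a median of -0.16. Without probe set 4689724, an alternative chosen after seeing the data, the difference was -0.13 (SE 0.07; limma unadjusted p = 0.0976, adjusted p = 0.743) and the groups overlapped. With the median over probe sets in place of the mean it was -0.054. Markers of hypothalamus, a neighbour of the amygdala in the slice, were lower in knockout in 6 of 6 measured genes (median -0.56, 0 past the test). Their mean list level was 5.69 to 5.94 in knockout and 6.19 to 6.91 in wild type, which did not overlap either. On wild-type arrays 1 to 5 the hypothalamus mean, centred on each gene's mean, was 0.78, 0.43, 0.35, 0.05 and 0.09. The blood list (2 genes measured, 1 past the test) also did not overlap, at 6.58 to 6.95 in knockout and 7.27 to 8.27 in wild type. That separation rests on Hbb-b1, at 7.58 in knockout and 9.39 in wild type (-1.81, limma adjusted p = 0.00315). The other blood gene, Alas2, differed by -0.09 (limma unadjusted p = 0.528) and its groups overlapped. All measured markers were lower in the myelin, microglia, choroid plexus and striatum lists too, but in each the mean list levels overlapped. The microglia difference was small, with a median of -0.05. The part of these lists in the Erbb2 difference was not tested.

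Erbb3, a neuregulin receptor with an impaired kinase, was at 6.60, 6.49, 6.55, 6.12 and 6.40 on the knockout arrays, against 6.80, 6.91, 6.65, 6.26 and 6.24 on the wild-type arrays. Wild-type arrays 1 to 3 were above all knockout arrays, and wild-type arrays 4 and 5 were below 4 of the 5 knockout arrays. The difference was -0.14 (SE 0.14; limma adjusted p = 0.866; 95% interval -0.43 to 0.15). Its 33 probe sets leaned one way: 28 were lower and 5 higher in knockout, with a median of -0.17. The size of this difference depended on the arrays used. It was -0.053 without wild-type array 2, -0.06 without knockout array 4 and -0.081 without wild-type array 1, against -0.214 without wild-type array 4 and -0.22 without wild-type array 5. Without both wild-type arrays 4 and 5, chosen after seeing the data, it was -0.35 (limma adjusted p = 0.284), and without arrays 4 and 5 of both genotypes, also chosen after seeing the data, -0.237 (limma unadjusted p = 0.034, adjusted p = 0.683). The Erbb3 probe set of smallest p, 4892868, was at 5.90, 6.57, 6.32, 6.09 and 6.38 in knockout against 6.82, 6.76, 6.93, 6.73 and 6.55 in wild type, a difference of -0.50 (limma unadjusted p = 0.00819, adjusted p = 0.785). Of the wild-type arrays, array 5 alone lay inside the knockout range.

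Erbb4, the receptor for all neuregulins and the one known from interneurons, was at 8.82, 8.83, 8.89, 8.74 and 8.77 on the knockout arrays, against 8.89, 8.74, 8.97, 8.60 and 8.69 on the wild-type arrays. The wild-type arrays spread on both sides of the knockout arrays. The difference was 0.03 (SE 0.08; limma adjusted p = 0.953; 95% interval -0.14 to 0.20). Of 31 probe sets, 18 were higher, 11 lower and 2 equal, between -0.17 and 0.37.

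Egfr, the receptor for EGF and its relatives, was at 7.14, 7.04, 7.06, 7.00 and 6.99 on the knockout arrays, against 7.10, 7.29, 7.23, 6.82 and 6.92 on the wild-type arrays. Wild-type arrays 2 and 3 were the highest and wild-type arrays 4 and 5 the lowest of the 10. The difference was -0.03 (SE 0.09; limma adjusted p = 0.970; 95% interval -0.22 to 0.17). Without wild-type arrays 4 and 5 it was -0.16 (limma adjusted p = 0.443), without arrays 4 and 5 of both genotypes -0.127 (limma adjusted p = 0.807), and without wild-type array 2 it was 0.029. Of 43 probe sets, 20 were higher and 23 lower.

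**Figure D2:**
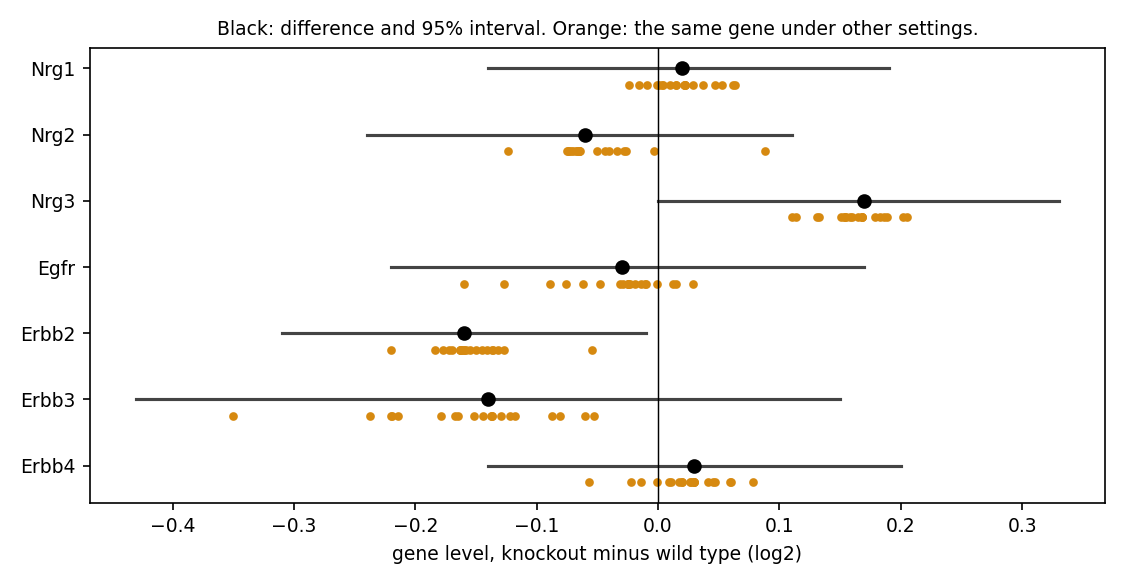
Knockout minus wild type gene level (log2) for the 7 genes: black points with lines are the difference and its 95% interval, and orange points are the same gene under each other processing setting. Nrg3 lies above 0 and Erbb2 and Erbb3 below 0 in every setting, while Nrg1, Nrg2, Egfr and Erbb4 have settings on both sides.

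At the level of single probe sets, limma called 0 of the 180 tested in the 7 genes, against 0.00239% of all 628415 probe sets tested (15). At an unadjusted p under 0.05, 6 of the 180 were found (1 in Nrg1, 2 in Erbb2 and 3 in Erbb3), against 5.97% of all. For 0 of the 180 did the knockout and wild-type arrays not overlap, against 1.1% of all. Among all 201 probe sets, 86 were higher in knockout, 109 lower and 6 equal.

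**Figure D3:**
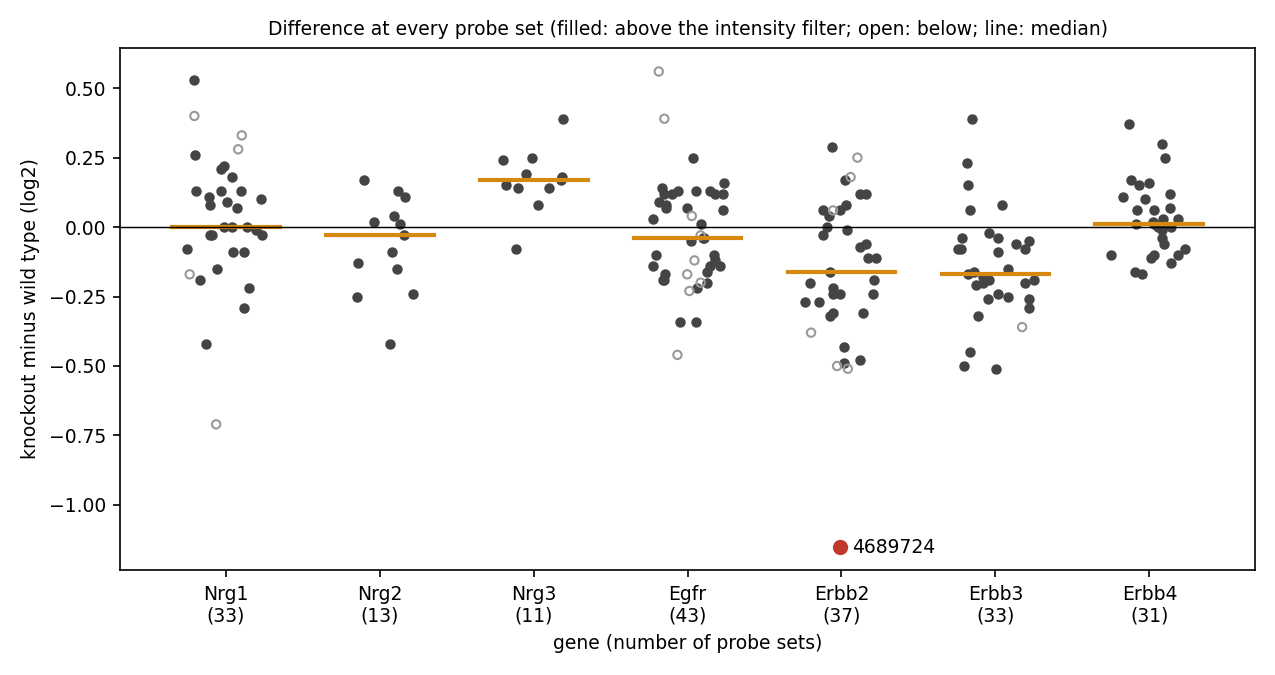
Knockout minus wild type (log2) at each of the 201 probe sets by gene; filled points passed the intensity filter, open points did not, and the line is the gene's median. Nrg3 has 10 of 11 points above 0, Erbb3 has 28 of 33 below 0, and the Erbb2 probe set 4689724 lies alone at -1.15.

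Exon usage, the behaviour of a probe set relative to the rest of its gene, was tested with limma's diffSplice. Of the 7 genes, 1 was called by the Simes p (Erbb2, adjusted p = 0.0429), against 1.69% of all genes (276 of 16367); the other 6 had an adjusted p of 0.988. The call rests on probe set 4689724, at 4.03, 3.95, 6.05, 4.70 and 4.29 on the knockout arrays, against 6.08, 5.97, 6.16, 5.42 and 5.12 on the wild-type arrays. Knockout array 3 lay with the wild-type arrays, and the other 4 knockout arrays lay below all of them. The means were 4.60 ± 0.86 in knockout and 5.75 ± 0.46 in wild type, a difference of -1.15 (SE 0.36; limma unadjusted p = 0.00745, adjusted p = 0.784 as a single probe set) and of -1.02 relative to the gene. Of its 5 knockout values, 4 were below 4.94, the median of all probe sets that served as the intensity filter. The probe set passed that filter through the wild-type arrays, where it is high, so its call is given as a description. The diffSplice test shares 1 variance among a gene's probe sets; with probe sets each given their own variance, 0 of the 7 genes were called (Erbb2 adjusted p = 0.890), against 0.0367% of all genes (6), and an F test per gene gave an adjusted p of 1 for Erbb2. Leaving out any one of knockout arrays 1, 2, 4 and 5 or wild-type arrays 1, 2 and 3 ended the call (diffSplice adjusted p between 0.0633 and 0.363), and quantile normalization again gave an adjusted p of 0.0519. Where probe set 4689724 lies in the gene is not given in the sources used here.

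**Figure D4:**
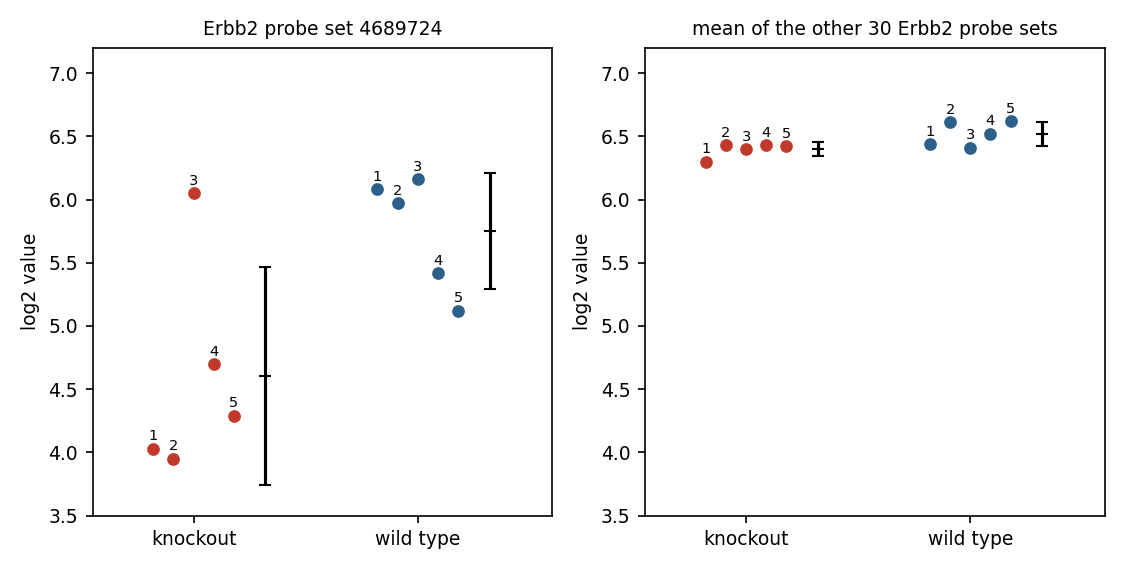
Log2 value on each array of the Erbb2 probe set 4689724 (left panel) and of the mean of the other 30 Erbb2 probe sets (right panel), knockout left and wild type right, with mean and SD of n = 5. Knockout array 3 sits at 6.05 among the wild-type arrays on the left, and the scale is the same in both panels.

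How the probe sets of a gene moved together from array to array differed between members. The median correlation of an Erbb3 probe set with the mean of the rest of its gene was 0.66 over the 10 arrays, and 23 of 32 were over 0.5, which put Erbb3 at percentile 93.2 of all genes. Egfr was at 0.53 and Erbb4 at 0.51, Nrg3 at 0.45, Erbb2 at 0.26, Nrg2 at 0.21 and Nrg1 at 0.19, against a median of 0.33 for all genes. These are descriptions over probe sets that share the same arrays.

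Erbb3 levels followed the myelin genes from array to array. The mean of 13 measured oligodendrocyte and myelin markers, each centred on its own mean, was 0.01, -0.09, -0.11, -0.41 and -0.10 on the knockout arrays and 0.50, 0.47, 0.22, -0.05 and -0.45 on the wild-type arrays. Wild-type arrays 1 and 2 were the highest in both Erbb3 and this mean, and knockout array 4 and wild-type array 5 the lowest in both. Over the 10 arrays the correlation was r = 0.92 and rho = 0.87 (permutation p = 0.00035 and 0.00209; adjusted over 21 relations, 0.00588 and 0.0219). It was 0.96 within the 5 knockout arrays and 0.93 within the 5 wild-type arrays, and 0.82 without wild-type arrays 1 and 2, the farthest from the median. Without wild-type arrays 4 and 5 it was 0.95 (permutation p adjusted over 21, 0.00441). Only the myelin, GABA interneuron and astrocyte lists were correlated with the members. The microglia mean was also highest on wild-type arrays 1 and 2, at 0.20 and 0.19. It was lowest on wild-type array 5 and knockout array 4, at -0.17 and -0.10. The amygdala mean was likewise highest on wild-type arrays 1 and 2, at 0.14 and 0.10. The array pattern is therefore not particular to the myelin list. All 13 myelin markers were lower in knockout, with a median of -0.28 and 0 past the test, at a mean list level of 8.09 to 8.51 in knockout and 8.05 to 9.0 in wild type; the part of this in the Erbb3 difference was not tested.

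Erbb3 also followed the GABA interneuron markers, at r = 0.90 and rho = 0.90 (permutation, adjusted p = 0.00588 and 0.0178), with 0.84 without the 2 farthest arrays. This was r = 0.86 and an adjusted p of 0.0582 without wild-type arrays 4 and 5. The marker lists are not separate measures: the myelin and GABA means correlated at 0.90 over the same 10 arrays, the GABA and astrocyte means at 0.84, and the myelin and astrocyte means at 0.70. Egfr followed the astrocyte markers, at r = 0.83 and rho = 0.83 (permutation, adjusted p = 0.0243 and 0.0258). Its r was 0.61 without wild-type arrays 4 and 5, the farthest from the median (adjusted p = 0.252), so the relation rests on those arrays. It was 0.41 within the 5 knockout arrays and 0.87 within the 5 wild-type arrays, and that gap was not tested. Egfr had the same rho of 0.83 with the GABA markers (permutation, adjusted p = 0.0258), at r = 0.75 (adjusted p = 0.0598) and 0.79 without the 2 farthest arrays. Erbb4 had r = 0.67 with the GABA markers and 0.68 with the astrocyte markers, both with a permutation p adjusted to 0.0887. Erbb2, in contrast, had r = 0.13 with the myelin markers, and for Nrg1, Nrg2 and Nrg3 no r passed (permutation, smallest adjusted p = 0.698).

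**Figure D5:**
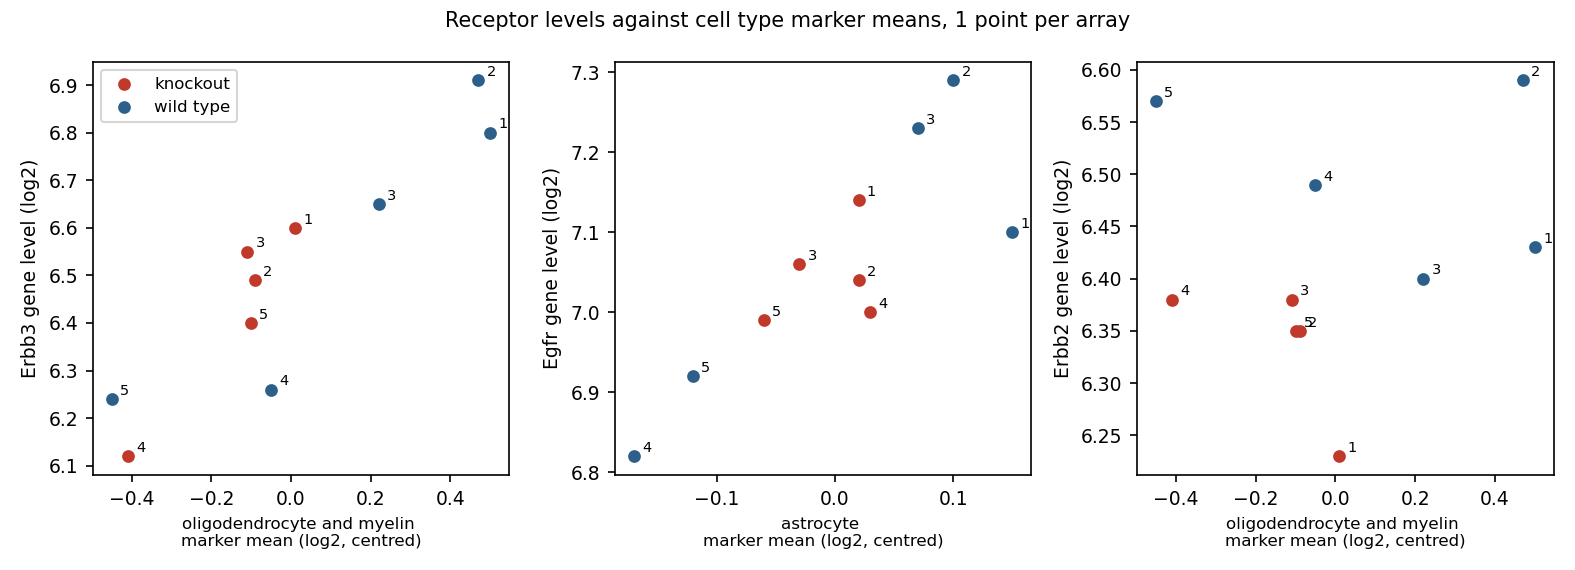
Gene level (log2) of Erbb3, Egfr and Erbb2 against the mean of a cell type marker list (log2, centred on each gene's mean), 1 point per array, red for knockout and blue for wild type, with array numbers. Erbb3 climbs with the myelin mean (r = 0.92) in both genotypes, whereas Erbb2 does not (r = 0.13).

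Between members, Egfr and Erbb3 had the highest correlation of 21 pairs, at r = 0.82 and rho = 0.88 (permutation, adjusted p = 0.0766 for r and 0.034 for rho), and 0.73 without wild-type arrays 2 and 4. Nrg3 and Erbb2 had the lowest, at r = -0.72 and rho = -0.64 (permutation, adjusted p = 0.196 for r), and -0.42 once genotype means were removed. The genes most like a member over the 10 arrays, once genotype means were removed, were Yars (0.979) and Exog (0.978) for Erbb3, Bloc1s6 (0.986) and Aff2 (0.977) for Egfr, Wsb1 and Nsun6 (0.965 each) for Erbb4, and Echdc2 (0.963) and Angptl7 (0.956) for Erbb2. For the ligands they were Chm (0.944) and Fcho2 (0.918) for Nrg1, Gadd45g (0.890) and Irs3 (0.869) for Nrg2, and Edn1 (0.915) and Sall1 (0.889) for Nrg3. With genotype means kept, r was 0.215 for Edn1, 0.42 for Echdc2, 0.545 for Gadd45g, 0.609 for Bloc1s6, 0.647 for Sall1 and 0.675 for Angptl7. It was 0.823 to 0.966 for the other genes named here. All these genes are the top of about 8490 candidates each and are given without a p.

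Around the members, no gene of the 5 pathway lists passed the limma test, where 0.0244% of all genes did. The other ErbB ligands were all lower in knockout, 6 of 6 measured, with a median of -0.18, against a median of 0.00 over all genes (8070 higher and 8297 lower). Egf, the founding ligand of Egfr, was at 5.85, 6.05, 5.97, 6.17 and 6.08 in knockout, against 6.24, 6.23, 6.03, 6.36 and 6.36 in wild type, a difference of -0.22 (SE 0.09; limma unadjusted p = 0.0238, adjusted p = 0.693). Wild-type array 3 alone lay within the knockout range. The Egf difference was -0.118 with no intensity filter, -0.11 with the stricter filter (limma unadjusted p = 0.147 and 0.417) and -0.14 without wild-type arrays 4 and 5. Tgfa, a second Egfr ligand, differed by -0.20 (SE 0.10; limma adjusted p = 0.718). Areg and Epgn were not measured.

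The proteases that shed or cut neuregulins were even, with 5 of 10 measured genes higher and 5 lower and a median of 0.02. Bace1, the beta-secretase that cuts Nrg1, differed by 0.11 (SE 0.07), and Adam19, a metalloprotease, by 0.11 (SE 0.08). Of the adapters and kinases downstream, 20 were higher and 11 lower (median 0.03). Gab1, a docking protein below the receptors, was at 7.80, 7.68, 7.80, 7.48 and 7.63 in knockout, against 8.21, 8.17, 8.07, 7.73 and 7.58 in wild type, a difference of -0.27 (SE 0.12; limma unadjusted p = 0.0406, adjusted p = 0.701). Wild-type arrays 1 to 3 were above every knockout array, and arrays 4 and 5 were within their range. The Gab1 difference was -0.148 with the median over probe sets (limma unadjusted p = 0.267) and -0.471 without wild-type arrays 4 and 5 (limma adjusted p = 0.129).

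Src, a tyrosine kinase, had all knockout arrays (8.14 to 8.22) above all wild-type arrays (7.93 to 8.12), a difference of 0.14 (SE 0.07; limma unadjusted p = 0.0533, adjusted p = 0.716). The negative regulators, which end ErbB signals by ubiquitination or feedback, were 7 higher and 7 lower (median 0.01), with the ubiquitin ligases Nedd4 at 0.10 and Cbl at 0.09. Of 11 measured scaffolds and intracellular partners, 9 were higher and 2 lower (median 0.08). Dlg3, a PDZ scaffold of the synapse, was at 9.06, 9.11, 9.12, 9.11 and 9.12 in knockout, against 8.82, 9.06, 8.94, 8.92 and 8.91 in wild type, a difference of 0.18 (SE 0.07; limma unadjusted p = 0.0202, adjusted p = 0.693). The groups did not overlap. The 5 pathway lists held 6, 10, 31, 14 and 11 measured genes. Src and Dlg3 were the 2 of these whose groups did not overlap, where 1.55% of all genes did not. So small a count is not read as a result about the lists.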

How the data were processed

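The authors deposited log2 expression values, 1 for each probe set and array, made by RMA in Affymetrix Expression Console (per the submitters' processing notes and the labels). For these tools a version, and for the annotation a build, is not given in the sources used here. Probe sets got their names from the platform annotation, and old symbols were updated where exactly 1 gene of the RefSeq table (GRCm38.p6) held the synonym. Probe sets with a mean above 4.94, the median of all 1256831 probe sets, were kept. A gene level is the mean of at least 3 of them. Genotypes were compared in limma 3.58.1 (R 4.3.3) by lmFit and eBayes over all genes or all probe sets, two-sided, without covariates, at an adjusted p of 0.05, and exon usage by diffSplice. Correlations used 100000 permutations. The fits were tested on simulated data with noise drawn separately for each gene and probe set. Such data lack the array patterns shared between genes, so they cannot show how the fits behave under them. The 5 arrays per genotype limit the precision. Alternatives were other scalings, filters, summaries, variance priors, the replicate number as a block and each array left out. Genes named are the members, the pathway genes of smallest p and the genes most like each member. Members and lists were chosen with earlier results of these data known.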

Additional observations from a re-analysis of the deposited data

Results flagged for a closer look

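Of 68 groups of 5 arrays checked for an array far from the rest, 4 had one, and chance gives about 1 in 20. Knockout array 1 was the lowest in Erbb2, at 6.23 against 6.35 to 6.38 on the other 4 knockout arrays. Knockout array 1 was also the lowest in Dlg3, at 9.06 against 9.11 to 9.12 on the other knockout arrays. Wild-type array 5 was the highest in Nrg2, at 7.08 against 6.94 to 6.98 on the other wild-type arrays. Wild-type array 2 was the highest in Bace1, at 8.55 against 8.33 to 8.38 on the other wild-type arrays.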

How the results depend on the processing

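No neuregulin or ErbB gene passed the test under any of the alternatives, and the direction of Nrg3, Erbb2 and Erbb3 was the same in all of them (Nrg3 0.11 to 0.205, Erbb2 -0.22 to -0.054, Erbb3 -0.35 to -0.053). With the median over probe sets, Nrg2 was at 0.088 and Egfr at 0.012; with array weights, Nrg1 was at -0.009 and Erbb4 at -0.001; without wild-type arrays 4 and 5, Nrg1 was at -0.024 and Erbb4 at -0.057, and without arrays 4 and 5 of both genotypes at -0.016 and -0.022. Leaving out 1 array at a time gave -0.001 to 0.063 for Nrg1, -0.089 to 0.029 for Egfr and -0.014 to 0.078 for Erbb4. Of the pathway genes named, the lowest values were 0.049 for Adam19, 0.021 for Nedd4, 0.019 for Cbl and 0.069 for Wwox. The causes were not tested.

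The Erbb2 exon usage call was lost under quantile normalization again (relative difference -1.005, adjusted p = 0.0519), a separate variance (-0.988), the F test (-1.021) and the stricter filter, which removes the probe set, and the count of called members was then 0 instead of 1. Leaving out 1 array at a time it lay between -1.384 and -0.849, with 0 or 1 gene called; the call was lost in 7 of 10 cases and held without wild-type array 4 or 5 or knockout array 3. With the replicate block the Erbb2 exon usage adjusted p was 0.0136 and its gene level -0.16 (adjusted p = 0.435), and Erbb3 was at -0.137 (unadjusted p = 0.138). Over all genes, 94 exon usage calls were made with the stricter filter, 448 with the replicate block, 453 without wild-type arrays 4 and 5, 37 by the F test and 6 with separate variances, against 276. Between the same-numbered arrays, the correlations of deviations were 0.28, 0.08, 0.27, 0.41 and 0.24. All were above 0 but pair 2 was under 0.1, and the labels name no shared litter or day, so pairing was not used. Knockout arrays 1 to 4 and wild-type arrays 1, 3 and 4 correlated best with their own number, a hint from the data and not the design. Over all probe sets, calls ranged from 0 to 102, against 15. The Egfr and astrocyte relation and the Erbb3 and GABA relation were lost without wild-type arrays 4 and 5, and the Erbb3 and myelin relation held in all 6 settings. An intensity near background limits the probe sets under 4.94.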
